A study of Drosophila melanogaster with 3 samples.

Results

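His2Av, His3.3A, His3.3B, His4r and cid encode variant or replication-independent core histones of Drosophila melanogaster. These genes lie outside the replication-dependent histone gene cluster, and BEAF-32 was measured at their starts. The 5 genes were taken from a fixed list by their symbols in the Ensembl annotation, and all 5 were found there among 13945 protein-coding genes of the large chromosome arms and chromosome 4. The measurement was chromatin immunoprecipitation and sequencing of whole embryos aged 0 to 14 hours, both sexes mixed, from the transgenic strain BEAF-32-GFP, in which green fluorescent protein (eGFP) is joined to the C terminus of BEAF-32. Chromatin was sheared by sonication. The description names an antibody against the fluorescent protein, while the antibody label reads BEAF-32. There was 1 group of 3 replicates, which the labels call biological without saying whether the embryos came from separate collections. All were of the same transgenic line and there was no second condition, so every embryonic tissue and the whole age range are averaged in each value. The data were peak lists in the dm6 build: 1 per replicate, 1 from the pooled replicates, and 1 of 6070 summits kept by the authors at their threshold of irreproducible discovery rate (IDR).

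A nucleosome is built from the core histones H2A, H2B, H3 and H4, most of which are made from tandem gene copies during DNA replication. Variant histones come from separate genes and can be placed in chromatin at other times by their own chaperones. His2Av encodes the fly's H2A variant, which serves in transcription and in the response to broken DNA. His3.3A and His3.3B both encode the replacement histone H3.3, His4r encodes a replication-independent H4, and cid encodes the H3 variant that marks centromeres. BEAF-32 is a DNA-binding protein of chromatin boundaries that is found mainly at promoters, and the string CGATA is described as the core of its recognition sequence.

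The bases at 4 of the promoters are shown because the number and position of CGATA set them apart. Each is the upper strand of the reference genome, 5′ to 3′, with copies of CGATA, or of its complement TATCG, in capitals. The His2Av line is the whole stretch between the starts of ball and His2Av (chr3R:26866808-26866928), which held 2 copies. The His3.3A line is the whole stretch between the starts of CG14036 and His3.3A (chr2L:5055017-5055057), which also held 2. The His4r line shows 29 bases of the 5′ untranslated region of its neighbour put (chr3R:14625670-14625698), which held 3. The His3.3B line shows 60 bases to each side of its summit (chrX:9156699-9156819), which held none.
His2Av: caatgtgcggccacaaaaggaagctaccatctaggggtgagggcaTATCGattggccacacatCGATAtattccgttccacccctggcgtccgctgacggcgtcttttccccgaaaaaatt
His3.3A: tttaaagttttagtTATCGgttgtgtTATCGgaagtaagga
His4r: ggCGATAgcgatggcCGATAggCGATAac
His3.3B: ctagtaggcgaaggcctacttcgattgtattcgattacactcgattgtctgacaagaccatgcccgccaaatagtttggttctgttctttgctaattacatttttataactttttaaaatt

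All 5 genes carried BEAF-32-GFP at a start. Each gene had at least 1 start within 500 bp of an IDR summit, the rule by which a gene is called bound here, against 43.7% of all coding genes. Each also had a summit in the strongest 6070 of all 3 replicates, against 38.6% of coding genes, and each had one among the strongest 3035 summits of the IDR list, against 28.5%. In the pooled relaxed list, which also holds weak regions, the share over coding genes was 59.7%. The strength was uneven. His2Av ranked 206 of 6070, while the other 4 genes ranked between 1887 and 2474. Over all 6092 bound coding genes, each taken by its strongest summit at a start, the median signal was 1100. His2Av and His4r lay above it, cid was level with it at 1101, and both H3.3 genes lay below. The members are a list of 5 genes in a single condition, so no test was made on their count.

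Each rank below is the place of a gene's strongest summit at a start when a list is ordered by signal, the authors' own value per peak, whose scale the sources used here do not state. The number of reads per library was not known either, and with it the depth behind each summit. The signal is comparable within a list only, and ranks were used between replicates. The replicate lists held 26497 summits in replicate 1 and 30000 in each of the others, and no line was identical between any of them.

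**Figure D1:**
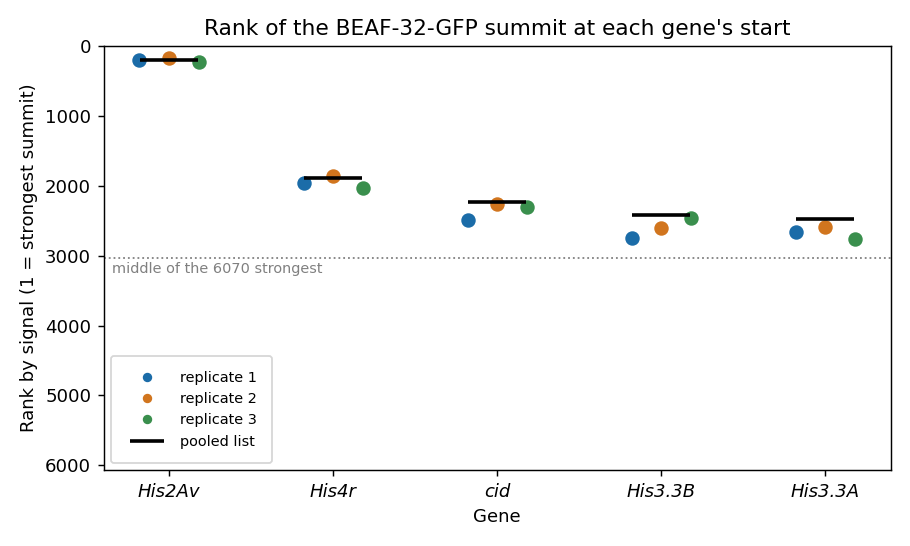
Rank by signal (vertical axis, 1 at the top) of the strongest BEAF-32-GFP summit within 500 bp of a start of each gene, with a point per replicate and a bar for the pooled list. The His2Av points lie between 171 and 230, and all points of the other genes lie between 1857 and 2759, above the middle of the 6070 strongest summits.

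His2Av (FBgn0001197, chromosome 3R, 26866929 to 26869220, plus strand) had the strongest summit of the 5. Its signal was 8869 in the IDR and pooled lists, 3268 in replicate 1, 2591 in replicate 2 and 3172 in replicate 3. Its ranks were 207, 171 and 230 in replicates 1, 2 and 3, a mean of 202.7 ± 29.7 (SD, n = 3). In every replicate it was thus stronger than at least 96.2% of the strongest 6070 summits. The bound region ran from 26866283 to 26867584, and its width of 1302 bp exceeded the region width of 91.8% of IDR summits.

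The His2Av summit at 26866832 was intergenic, 97 bp upstream of the single annotated start. The replicate summits lay within 6 bp of each other. It stood between His2Av and ball, a gene transcribed the other way from a start 122 bp from that of His2Av. The kinase encoded by ball phosphorylates histone H2A. The summit was 25 bp upstream of the ball start, so the peak belonged to both genes equally by the rule used. A second, weaker summit in the 5′ untranslated region of His2Av was listed in replicate 2 (117 bp downstream of the start, rank 4113) and replicate 3 (104 bp downstream, rank 2930), but not in replicate 1 or the pooled list. The next IDR summit was 3653 bp away.

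His3.3A (FBgn0014857, chromosome 2L, 5055058 to 5056149, plus strand) had a signal of 867 and ranked 2474 of 6070. In replicates 1, 2 and 3 its signals were 291, 296 and 285 and its ranks 2655, 2596 and 2759, a mean rank of 2670 ± 82.5 (SD, n = 3). It was the only member whose summit lay downstream of its outermost start. The summit at 5055074 was 16 bp inside the 5′ untranslated region and 60 bp upstream of the gene's second start, which serves 2 of its 3 transcripts. The replicate summits spread over 17 bp, between 19 and 36 bp downstream of the outermost start. CG14036, a coding gene on the other strand, started 42 bp from His3.3A, and its start was 58 bp from the same summit. The region was 489 bp wide, and the next IDR summit was 2299 bp away. An extra summit in the coding exon, 235 bp downstream, appeared in replicate 2 only, at rank 9807.

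His3.3B (FBgn0004828, chromosome X, 9152523 to 9156669, minus strand), the other gene for the same replacement histone, had a similar strength. Its signal was 917 and its rank 2417 of 6070. Its signals in replicates 1, 2 and 3 were 271, 293 and 356, and its ranks were 2748, 2610 and 2455, a mean of 2604 ± 147 (SD, n = 3). The summit at 9156759 was intergenic, 90 bp upstream of the outermost start, and the replicate summits lay within 4 bp of each other.

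The surroundings of His3.3B differed from those of the other members. It was the only member with no divergent partner: upstream, 259 bp separated its start from the 3′ end of Ost48, a gene of the same strand for a subunit of the oligosaccharyltransferase. A weaker summit in the 3′ untranslated region of Ost48 was listed in every library, 293, 295 and 295 bp upstream of the His3.3B start in replicates 1, 2 and 3. Its ranks there were 7077, 6374 and 4729, and in the pooled list it ranked 7948 and so missed the IDR list. His3.3B has 2 further starts. The one 1056 bp into the gene had a pooled summit 181 bp upstream of it, with rank 7399 and signal 86.6, outside the IDR list. Replicates 1, 2 and 3 had summits 211, 183 and 181 bp upstream of that start, at ranks 7798, 18313 and 9516, and replicate 2 had another 62 bp downstream at rank 10696. The start 1657 bp into the gene had 2 copies of CGATA within 100 bp but no pooled summit within 500 bp, the nearest being 643 bp downstream with a signal of 17.0. Single replicates listed weak summits near it, replicate 2 at 24 bp upstream with rank 14244 and replicate 3 at 447 bp downstream with rank 29065, and replicate 1 listed none within 500 bp.

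His4r (FBgn0013981, chromosome 3R, 14625755 to 14626614, plus strand) ranked second among the 5, with a signal of 1594 and rank 1887. Replicates 1, 2 and 3 gave signals of 559, 536 and 523 and ranks of 1963, 1857 and 2037, a mean rank of 1952 ± 90.5 (SD, n = 3). Its summit at 14625704 lay 51 bp upstream of the outermost start and 84 bp upstream of the second, which is used by 3 of 4 transcripts. The replicate summits fell within 4 bp. The neighbour put, which encodes a type II receptor for Dpp and activin signals, starts 52 bp from His4r on the other strand. The summit was 1 bp upstream of the put start. The next IDR summit was 30062 bp away, whereas the other members had one 200 to 3653 bp away. In replicates 2 and 3 only, a weak summit lay 152 bp downstream of the start, at ranks 8964 and 21348.

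The centromeric histone gene cid (FBgn0040477, chromosome 2R, 13485617 to 13486631, plus strand) had a signal of 1101 and rank 2228. In replicates 1, 2 and 3 the signals were 329, 381 and 411 and the ranks 2483, 2264 and 2299, a mean rank of 2349 ± 118 (SD, n = 3). The summit at 13485501 was intergenic, 116 bp upstream of the only annotated start. It lay 110 bp upstream of the start of cbc, which encodes a kinase of RNA ends and is transcribed the other way from a start 226 bp from that of cid. The summit was thus near the middle of the stretch between both starts, and the replicate summits spread over 15 bp.

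cid was the only member with a second IDR summit in the same region, at 13485701, 84 bp downstream of its start in the first coding exon, with a signal of 330 and rank 4107. This second summit was listed in all 3 replicates, 73, 92 and 82 bp downstream of the start, at ranks 4145, 4306 and 4143. When IDR summits were grouped by the first base of their region, 835 of 5172 regions (16.1%) held more than 1. The cid region was 661 bp wide.

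**Figure D2:**
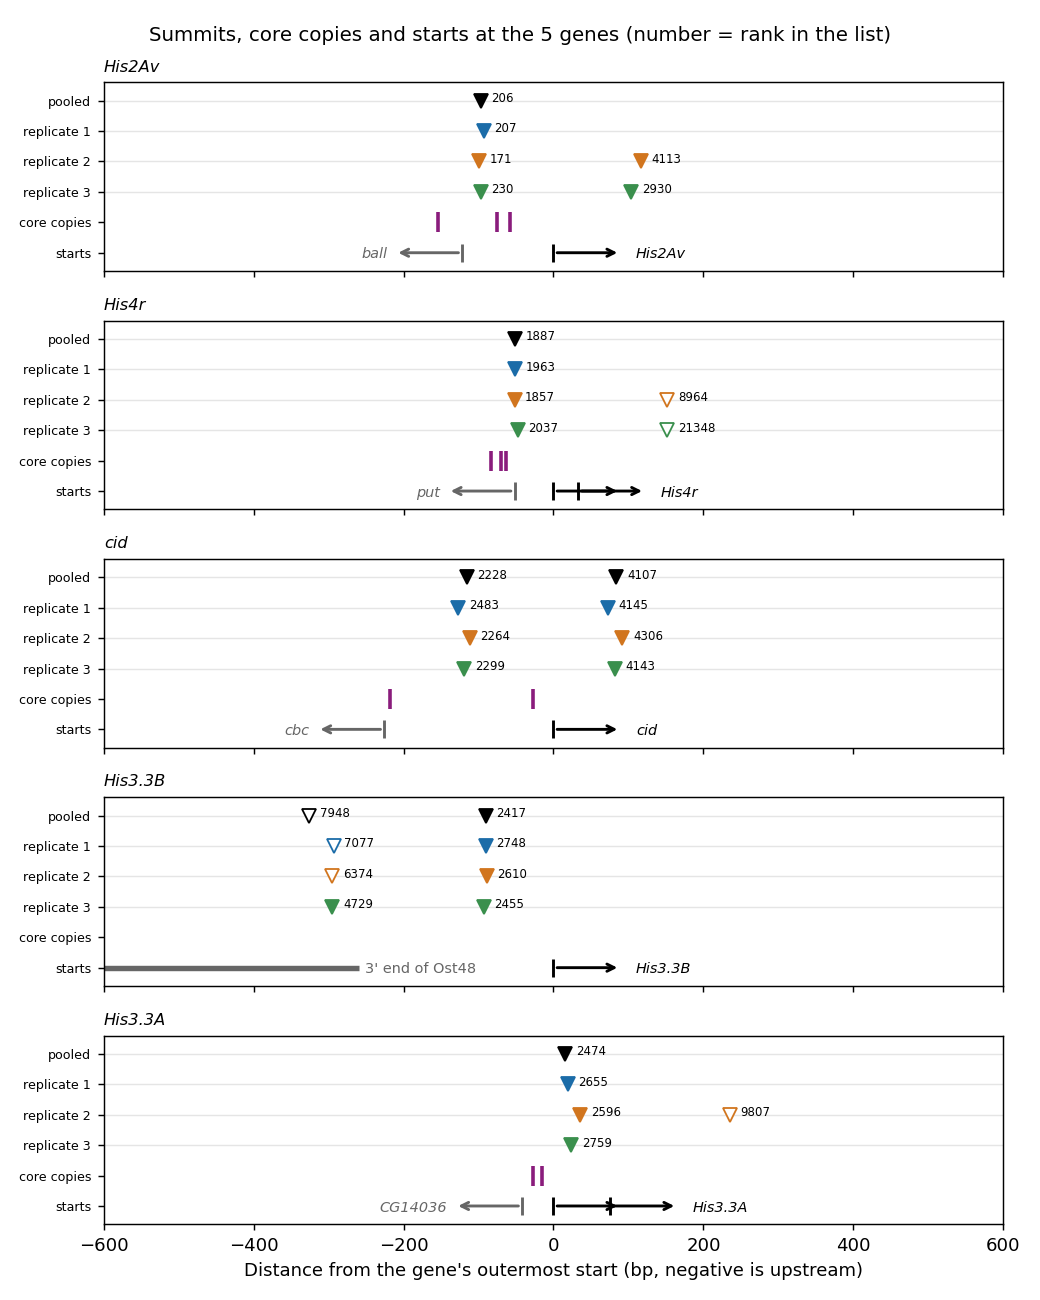
Summits of the pooled list and of each replicate within 600 bp of the outermost start of each gene (horizontal axis, bp, transcription to the right), with the rank beside each. Filled triangles are among the 6070 strongest summits of their list, open ones are not, ticks mark copies of the core within 300 bp of the IDR summit, and arrows mark starts. Main summits repeat within 4 to 17 bp across replicates, and only cid has a second filled summit in every row.

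Between neighbours in strength, some orders held in every replicate and others did not. His2Av was first and His4r next in all 3 replicates, with 1686 to 1807 ranks between them. His4r stood above cid in 3 of 3 replicates, by 262 to 520 ranks, and the ranges of both genes did not overlap. cid stood above His3.3B in 3 of 3 replicates, by 156 to 346 ranks, but their ranges over replicates overlapped. His3.3A and His3.3B could not be put in order: the mean ranks differed by 65.67, less than the SD of either, and His3.3B was the stronger in 1 of 3 replicates.

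4 of the 5 members shared their peak with a divergent coding partner, a gene of the other strand that starts at most 1000 bp upstream. In the genome 32.7% of coding genes have such a partner, at a median distance of 301 bp between starts. The partners ball, CG14036, put and cbc started 122, 42, 52 and 226 bp away, all closer than that median. Each partner was bound through the same summit as the member. Of all coding genes with a divergent partner 76.8% were bound, and of those without one 27.6%, and His3.3B was in the second class. The median signal of bound genes was 1470 with a partner and 726 without. Within their class His2Av and His4r lay above the median, and cid, at 1101, and His3.3A, at 867, below it. His3.3B, at 917, lay above the median of genes without a partner. A summit between or beside such close starts cannot be assigned to either gene.

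In the 201 bases centred on each IDR summit both strands were searched for CGATA. His2Av had 3, His4r had 3, His3.3A had 2, cid had 1 and His3.3B had none. Of all 6070 IDR summits 58.3% held at least 1, as did 39.2% of windows of the same length centred on the outermost starts of coding genes. At His2Av the copies began 57 bases before, 21 bases after and 39 bases after the summit, the first of them in an intron of ball and the others in the stretch printed above. At His4r all copies read the same way and lay within 25 bases, 32, 19 and 12 bases before the summit. At His3.3A both were on the minus strand, 43 and 31 bases before the summit, in the short stretch between the starts. At cid the copy lay 88 bases after the summit and 28 bases upstream of the start, and a further copy began 102 bases before the summit, outside the window.

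The genes with the most copies, His2Av and His4r with 3 each, were also the strongest in the pooled list and in every replicate. This holds for the window of 100 bp: with 50 bp His2Av had 2 copies, as many as His3.3A. Below them the order by copies and the order by strength parted. In all 3 replicates cid with 1 copy stood above His3.3A with 2, though the count at cid depends on the window too. Over all IDR summits the median signal was 326 at the 2532 summits with no copy, 559 at the 1278 with 1, 1510 at the 1016 with 2, 2830 at the 680 with 3, and 3610 at the 564 that held at least 4. In these classes the string TATCGATA, which reads the same on both strands, counts as 2 copies. It stood at 1027 IDR summits and at no member summit, so the classes mix separate copies with such strings. His2Av was stronger than 91.6% of the summits that also had 3 copies, while His4r, with as many, was stronger than 34.7% of them. His3.3A was stronger than 36.5% of summits with 2 copies, and cid than 68.7% of those with 1. His3.3B was stronger than 86.3% of summits with none. Without a copy, it exceeded His3.3A in the pooled signal by 917 to 867, a gap that the replicates did not keep.

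**Figure D3:**
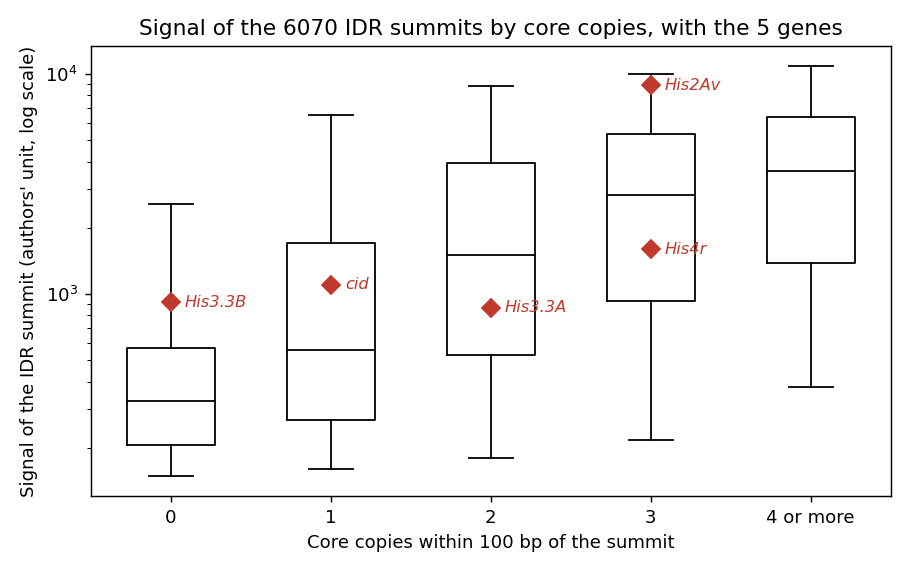
Signal of the 6070 IDR summits (vertical axis, authors' unit, log scale) by the number of core copies within 100 bp of the summit; boxes give quartiles with the median as a line, whiskers the 5th and 95th percentiles, and diamonds the 5 genes. His2Av lies near the top of its class, His4r and His3.3A below the median of theirs, and cid and His3.3B above.

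Other promoter strings were mostly missing from these windows. TATCGATA, the element bound by Dref, was in none of the 5, against 16.9% of IDR summits and 7.87% of starts. GAGAG, the string of GAGA factor (16.1% of summits, 22.6% of starts), and CAGGTAG, the string of Zelda (0.807% and 1.03%), were in none either. GGTCACACT, known as core promoter motif 1, was in 1 of 5, at His3.3A, 58 bases after the summit, against 8.27% of IDR summits and 5.28% of starts. CGATA is part of TATCGATA, while the other strings share no whole copy with it. No match says only that these letters are not in these windows.

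The genes most like each member in strength were named by their ranks in the 3 replicates, over 5384 coding genes bound in every replicate. The measure was the Euclidean distance of the log10 ranks, in which genes that share a summit tie. Nearest to His2Av were CG14795 and inc (distance 0.0249), to His3.3A mbm and CG11555 (0.0161), and to His3.3B RpS20 and CG17271 (0.0121). Nearest to His4r were kug (0.0192) and mEFG1 (0.0224), and to cid CG15432 and Sfp24F (0.0117). CG14795 and inc, for example, share a summit of ranks 204, 165 and 240 in replicates 1, 2 and 3, and CG15432 and Sfp24F share one of ranks 2501, 2320 and 2319.

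The replication-dependent histone genes had no summit at all. None of their 111 annotated coding copies, such as His1:CG31617, His1:CG33801 and His1:CG33804, had an IDR summit at a start. The cluster runs from 21416953 to 21541681 on chromosome 2L, 124729 bp, and no summit lay within it in the IDR list, the pooled relaxed list or any of the 3 relaxed replicate lists. In the pooled list the nearest summits were 19533 bp before and 12043 bp after it, which makes a stretch of 156304 bp. Only 85 of 29990 spaces between neighbouring pooled summits were longer, and the median was 1292 bp. CGATA stood within 100 bp of the start at 20 of 23 His2B copies and 21 of 22 His4 copies, and at none of the His1, His2A and His3 copies. A divergent coding partner was annotated for 84 of the 111 genes. The copies are near-identical repeats, and the sources used here do not say how reads that match several places were treated. An absence of summits in this cluster therefore cannot be told apart from an absence of reads that could be placed.

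The gene lists for histone handling and for the centromere can be set beside shares over all coding genes, of which 43.7% were bound, 38.6% in every replicate and 28.5% through the strongest 3035 summits. A divergent coding partner was annotated for 12 of 19 chaperone genes, 17 of 24 remodeller genes, 16 of 26 centromere genes and 7 of 8 histone mRNA genes, against 32.7% of all coding genes, and 76.8% of all genes with such a partner were bound. Among the 3 strongest genes named below for each of these lists, all but polo have such a partner. Where they do, the signal may belong to the partner as well. All 19 histone chaperone genes were bound, and all 19 in every replicate, with 15 among the strongest 3035 summits. Their median signal was 3330, against 1100 over all bound coding genes and 1470 over those with a divergent partner. Daxx, whose product resembles an H3.3 chaperone of mammals, led with a signal of 15740 and rank 13. XNP, the fly relative of the remodeller ATRX, followed with 11770, and Set, a chaperone related to Nap1, with 9475. For their role, and after their values were seen, Hira and yem can be added, the partners that place H3.3. Hira had 3302 (rank 1196) and yem 583 (rank 3022), so the H3.3 genes themselves, at 867 and 917, lay between them. Nlp and Nph share a single summit and are not independent.

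Of 24 genes of H2A variant exchange and related remodellers, 24 were bound, 22 in every replicate and 16 through the strongest 3035 summits, with a median signal of 2340. Iswi, the motor of several remodellers, led with 10620, before Ino80 with 9024 and Bap55, an actin-related subunit, with 6987. The signal of His2Av, 8869, was close to that of Ino80. The gene dom, whose product exchanges H2A for the variant, and Tip60, the acetyltransferase of the same complex, were weaker, with 969 and 1237; both were named after their values were seen. In the list as a whole 2 genes, DMAP1 and Nipped-A, failed in replicate 2, where they ranked 6498 and 8825.

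Of 26 centromere, kinetochore and spindle checkpoint genes, 24 were bound, 21 in every replicate and 18 through the strongest 3035 summits. Nnf1a, a subunit of the Mis12 complex, led with 6796, followed by the mitotic kinase gene polo with 6688 and Incenp, of the chromosomal passenger complex, with 5914. The signal of cid, 1101, was below the median of 1750 over the bound genes of this list. Named after their values were seen, cal1, which loads the cid product at centromeres, had 620, and Cenp-C, which binds it, had 1022. Bound in the IDR list but not in every replicate were Mis12, aurB and cana. In replicate 2 Mis12 ranked 7705, aurB ranked 17589 and cana had no summit at a start. In replicate 3 cana ranked 21602. Unbound were Nnf1b, a copy of Nnf1a whose pooled summit ranked 8202, and borr, a passenger gene with no pooled summit at a start but ranks of 5157 and 5568 in replicates 1 and 3.

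Genes for histone mRNA and the histone locus were bound in 7 of 8 cases, 6 of them in every replicate and 6 through the strongest 3035 summits, with a median signal of 5770 over the bound. Slbp, which binds the stem-loop of histone mRNA, led with 8780 (rank 210, against 206 for His2Av). Sym, a scaffold of mRNA cleavage, followed with 7379, and mxc, an organiser of the histone locus body, with 7025. The exception was abo, a regulator of histone genes, with a pooled summit at rank 12318. Among 7 other histone-like and sperm chromatin genes 1 was bound, the embryonic linker histone gene BigH1, with a signal of 282 and rank 4418. It missed the strongest 6070 of replicate 2, at rank 6550. Mst77F, Mst84Da and ProtA, which encode proteins of the male germ line, were among the 6 unbound. Every bound gene of the lists that failed in a replicate failed in replicate 2, Lsm11 of the histone mRNA list at rank 6182.

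**Figure D4:**
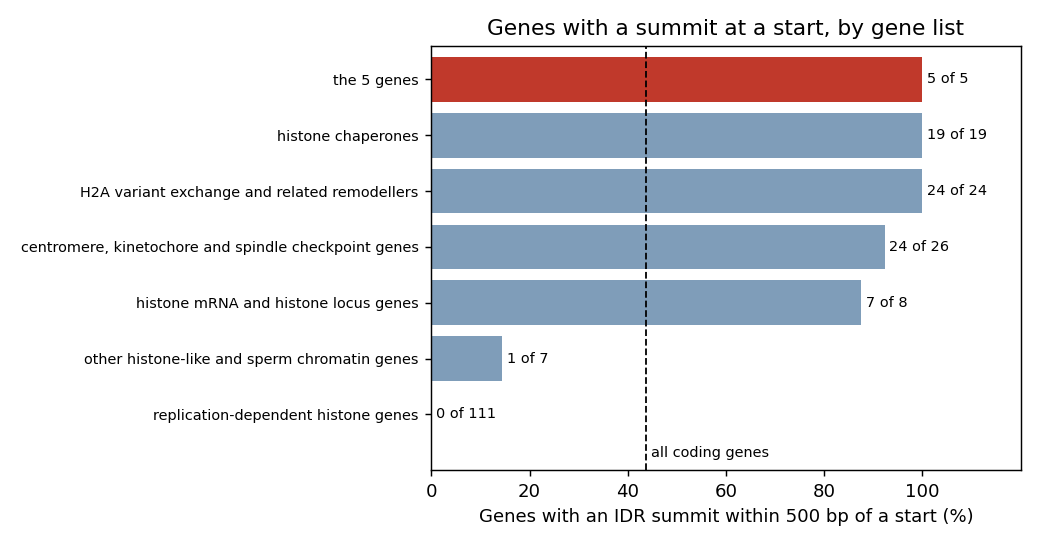
Share of genes called bound, by an IDR summit no more than 500 bp from a start (horizontal axis, percent), for the 5 genes and for 6 gene lists, with counts beside the bars; the dashed line is the share of all coding genes, 43.7%. The 5 genes and 4 lists lie above the line, and the list of other histone-like and sperm chromatin genes with 1 of 7 and the replication-dependent histone genes with 0 of 111 lie below it.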

How the data were processed

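The peaks were called by the authors, who, per the file headers and accompanying text files, set each replicate's alignment, and the pooled alignments of all 3, against a control alignment, kept relaxed lists, and derived the IDR list from them in dm6. With aligner, peak caller and settings not given in the sources used here, their effect on weak summits could not be examined. The deposited signal of each peak and its deposited −log10 q-value are the authors' values. That q-value was 4.24 on this scale at every IDR summit and was not used to rank. The deposited summit offsets were turned into 1-based positions. Neither the dm3 lists nor the coverage tracks were used here.

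Starts came from Ensembl BDGP6.54, release 115, and bases from the RefSeq copy of the same assembly. A gene was called bound when a summit lay within 500 bp of any start, and replicate calls used the strongest 6070 summits of each replicate. Copies of strings had to lie wholly in the window. No test was made, since there was 1 group. SDs are over 3 replicates and measure the spread between these libraries. Genes are not replicates. By rule the text names coding genes with a start within 1000 bp of a member's start or 500 bp of its summit, the 3 strongest bound and the first 3 unbound genes by alphabet of each list, and the 2 nearest in rank. Other genes were chosen after their values were seen. The members and lists were chosen with earlier results of these data known. Alternatives changed the windows, thresholds, replicates and annotation. The code for calls and copy counts was run on simulated summits and bases with known answers, which checks the code and not the peaks. Python 3.11.15, numpy 2.4.6, pandas 2.3.3 and matplotlib 3.10.9 were used.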

Additional observations from a re-analysis of the deposited data

How the results depend on the processing

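No paired analysis was possible because there is a single group. All 5 genes were bound with windows of 250 and 1000 bp, in the strongest 3035 summits of the IDR list and in the whole pooled list. They were also bound with outermost starts only, with regions over a start in place of summits, and, added after the data were seen, with RefSeq starts. Of these settings, the share of all coding genes was taken only for the strongest 3035 summits (28.5%) and the whole pooled list (59.7%). The counts at the other settings have no such share beside them. All 5 were also found in every replicate under each alternative tried, including without replicate 1, 2 or 3. Several settings could not lower a count of 5: the 1000 bp window, the whole lists and a replicate left out. The RefSeq starts of the 5 genes were the same as the Ensembl starts, so that setting could not either. Only the 250 bp window, fewer summits, outermost starts and regions over a start could have lowered it. Mean ranks without 1 replicate ran from 189.0 to 218.5 for His2Av, 1910 to 2000 for His4r, 2282 to 2391 for cid, 2532 to 2679 for His3.3B and 2626 to 2707 for His3.3A, so the order of the H3.3 genes depended on the replicates kept. With 50 bp in place of 100 bp at summits the copies of CGATA fell to 2 at His2Av and 0 at cid, and with 200 bp cid had 2. Of the 7 other histone-like and sperm chromatin genes, BigH1 was bound by the main rule. The number bound was 0 with 250 bp, 2 with 1000 bp and 0 among the strongest 3035 summits. The changed window or threshold itself makes these changes, and the share of all coding genes was not taken at 250 or 1000 bp. The unknown depth limits what can be said of weak summits.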

Other observations

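The bases at the His3.3B summit held CGATT 3 times on the upper strand, beginning 39, 29 and 19 bases before the summit as that strand is read. His3.3B is on the minus strand, so these copies of CGATT lie between the summit and its outermost start. This string was chosen after those bases were seen. At least 3 copies stood within 100 bp of 58 of the 2532 IDR summits that lack CGATA (2.29%), of 298 of all 6070 IDR summits (4.91%) and of 534 of 13685 outermost starts (3.9%). The median signal was 530 at the 58 summits and 323 at the other IDR summits without CGATA, and His3.3B had 917. No test was made of this difference.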
